A study of Mus musculus with 2 samples.

Results

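Mature melanocytes of the mouse hair bulb were described cell by cell, to show which transcripts fill such a cell and which ones differ among cells of the same kind. They were the barcodes of the bulb library with more than 5000 UMIs (unique molecular identifiers, each a counted transcript molecule), under 5% of UMIs from mitochondrial genes, at least 1 Dct UMI and fewer than 3 UMIs of Krt10 and Krt14 together. The rule gave 3734 cells of the 4327 barcodes in that library and of the 15337 barcodes in the series. It used Dct, Krt10, Krt14, the UMI total and the mitochondrial share, so these are given below as a description.

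The series holds 2 single-cell libraries of melanocyte-lineage cells. Both came from mice carrying Dct-rtTA and tetO-H2B-GFP, in which doxycycline, given here in the diet for 4 days, switches on a nuclear GFP in cells where the Dct promoter is active, and GFP-positive cells were sorted. The bulb library pooled 4 mice aged 5 weeks, at anagen VI, when hair is growing. The other library held cells labelled as activated melanocyte stem cells, from the back skin of 4 pooled mice at early anagen, 4 days after the hair was removed, and was made with a later version of the droplet kit. Because each library is a single sample, cells are not replicates, no test between samples was possible, and every value describes this library. The sort and the rule both rest on Dct, so melanocytes with little Dct expression are likely to be under-represented among these cells.

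Melanocytes of the bulb make melanin in melanosomes, organelles related to lysosomes, and hand them to the keratinocytes that build the hair shaft. Tyrosinase (Tyr), Tyrp1 and Dct catalyse steps of melanin synthesis, Pmel forms the fibrils on which melanin is laid down, and Mlana helps Pmel mature. Oca2, Slc45a2 and Slc24a5 are transport proteins that set the ionic conditions of the melanosome, and Mitf is the transcription factor that drives many of these genes.

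Mitf binds the letters CATGTG, and upstream sequence of pigment genes that hold it is shown here because the data below describe the levels of these genes and how they varied among cells. The letters were searched on both strands in the 250 bases before each RefSeq start site (GRCm38.p6), where 12.25% of 32851 windows and 13.8% of 27025 genes hold them. Of the melanin enzyme and matrix genes, 5 had a window and 3 of these held the letters, and of the melanosome carriers 4 of 9 did. Of 16 genes of melanosome cargo sorting 2 did, none of 9 lineage factor genes did, and 1 of 15 glycolysis genes did. A match is a description of the sequence only. Capitals mark the letters (CACATG is the same site on the other strand).
Dct: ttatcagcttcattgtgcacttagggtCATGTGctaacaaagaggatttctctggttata
Tyrp1: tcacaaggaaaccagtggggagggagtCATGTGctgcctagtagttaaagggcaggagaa
Tyr: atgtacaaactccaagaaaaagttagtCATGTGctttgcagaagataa
Trpm1: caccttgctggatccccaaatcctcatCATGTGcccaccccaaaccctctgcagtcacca
Oca2: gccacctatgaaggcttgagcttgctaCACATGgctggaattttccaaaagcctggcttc
Slc24a5: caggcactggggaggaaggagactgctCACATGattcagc
These windows lie at chr14:118052364-118052423 (Dct, minus strand), chr4:80834140-80834199 (Tyrp1, plus), chr7:87493513-87493560 (Tyr, minus), chr7:64153667-64153726 (Trpm1, plus), chr7:56239546-56239605 (Oca2, plus) and chr2:125068087-125068126 (Slc24a5, plus). The letters begin 150 bases before the start site in Dct, 46 in Tyrp1 and 21 in Tyr. These 3 melanin enzyme genes share a longer run around them, GTCATGTGCT, which 51 of the 32851 windows hold, or 0.155%. Dct holds the letters a second time, 232 bases before the start. Windows of Pmel and Mlana were not analysed here.

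The cells were deeply read. The library held 58161397 UMIs, of which 55883067 were in the 3734 cells. A cell had a median of 14286 UMIs (5th to 95th percentile 8209 to 23839) and of 3407 genes with a UMI (2596 to 4274), and 2.78% of its UMIs were mitochondrial (1.98 to 3.84). Of the other barcodes, 440 had 5000 UMIs or fewer, 113 more were at or above the mitochondrial limit, and 40 of the 3774 left were set aside for Dct or keratin. Cells just inside the limits had 5003 UMIs and 4.998% mitochondrial UMIs, and barcodes just outside had 4988 UMIs and 5.02%. There were 6 cells with a single Dct UMI and 99 with 2 keratin UMIs, and 17 barcodes were left out at exactly 3. The libraries shared 1 barcode sequence.

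Most of these cells carried high levels of melanocyte markers, and a few did not. The 7 melanocyte markers (Dct, on which cells were selected, Tyr, Tyrp1, Pmel, Mlana, Oca2 and Mitf) summed to 67722 UMIs per 1000000 UMIs (CPM) over all cells, and a cell had a median of 68707 CPM (43501 to 86874). In 23 cells the sum was under 25% of that over all cells. In 18 of these it lay between 202 and 1046 CPM, and in the other 5 between 6575 and 15705 CPM, while the next cell stood at 18224 CPM. The 23 cells had no Oca2 UMI. They held 7923 CPM of Tchh, the trichohyalin of the inner root sheath, 5391 CPM of Krt17 and 7445 CPM of Fabp4, against 40.8, 30.3 and 38.8 CPM over all 3734 cells. In the list of 25 hair matrix and shaft markers, 22 had a UMI, and the sum was 149 CPM over all cells with Lef1 the most abundant at 77.0 CPM, and 12023 CPM in the 23 cells. The data therefore go against the label in about 18 cells, while the other 5 lay between them and the rest, and results on variation that rest on them are given also for the other 3711 cells. Without the 23 cells the mean of the hair list went from 0.826 to 0.451 UMIs per 5000 and its Fano factor from 44.5 to 1.72.

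Markers of further cell types were close to absent. Fibroblast and dermal papilla markers summed to 0.966 CPM, with 5 of 12 genes having a UMI. Immune markers summed to 8.75 CPM, most of it Lyz2 at 7.09 CPM, endothelial and mural markers to 0.125 CPM, and erythroid markers to 0.716 CPM. The keratinocyte list summed to 678 CPM, of which Fabp5 gave 568 CPM.

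Pigment transcripts and ferritin filled the top of the list. The 20 most abundant genes outside the mitochondrial and ribosomal protein genes took 17.2% of all UMIs, the 7 markers alone 6.77%, and ribosomal protein genes 11.3%. Each UMI was read at the 3′ end of a transcript, so levels were not divided by gene length. Ftl1, the light chain of the iron store ferritin, was first with 21366 CPM (95% Poisson interval 21328 to 21405, counting error only), and its heavy chain Fth1 had 6896 CPM. Mlana followed with 20325 CPM (20287 to 20362), then the nuclear RNA Malat1 with 16179, Dct with 15879, Pmel with 15240 and Tyrp1 with 13524 CPM. The intervals of neighbours among these 5 genes and Ftl1 did not overlap. Tyr, the rate-limiting enzyme of melanin synthesis, stood far lower at 1871 CPM, and Oca2 had 554 and Mitf 330 CPM.

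Several others of the 20 act in melanosomes or lysosomes or are secreted. Cd63, a tetraspanin that sorts Pmel, had 12132 CPM, Slc24a5 had 4454 CPM, and Trpm1, a cation channel gene first found in melanocytes, had 4197 CPM. Ctsb, a lysosomal protease, had 3582 CPM, and Atp6v0c, a subunit of the proton pump that acidifies lysosomes and melanosomes, had 3290 CPM. Ptgds, which makes prostaglandin D2, had 7044 CPM, the neuropeptide Npy 4068 and the matrix protein Sparc 3792 CPM. The list was completed by the polyubiquitin gene Ubb with 5232 CPM, the peroxiredoxin Prdx1 with 4261, the polyamine enzyme Sat1 with 3554, the prolyl isomerase Ppia with 3277, and Alppl2, an alkaline phosphatase, with 3298 CPM.

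**Figure D1:**
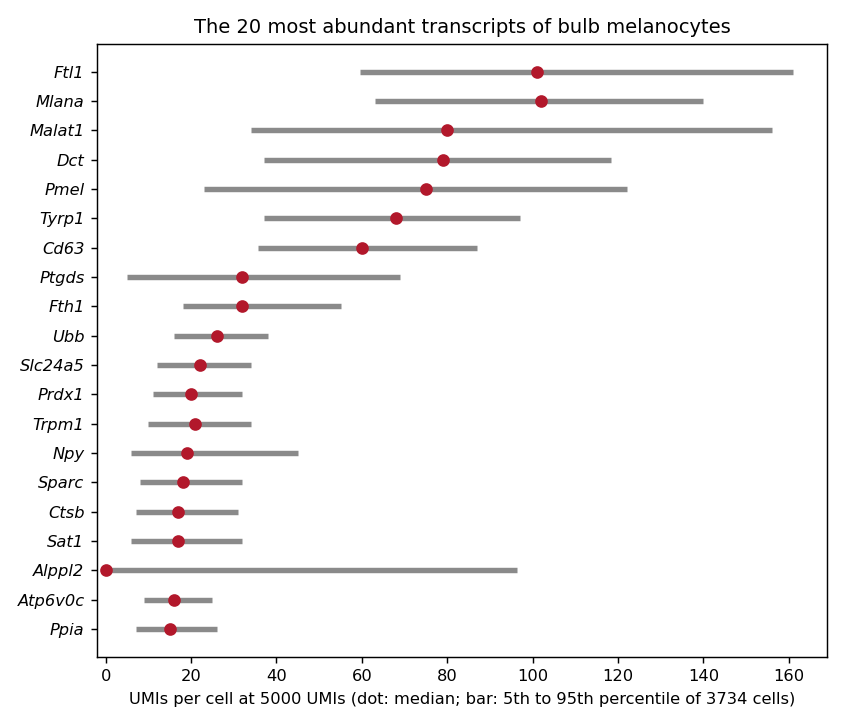
UMIs per cell of the 20 most abundant genes after each of 3734 cells was thinned to 5000 UMIs. Dots are medians and bars run from the 5th to the 95th percentile of cells. Alppl2 is the gene with a median of 0, and its bar reaches 96.4 UMIs.

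To compare cells of unequal depth, 5000 UMIs were drawn from each cell without replacement. Thinned in this way, a cell held a median of 102 Mlana UMIs (5th to 95th percentile 63 to 140), 79 Dct UMIs (37 to 118), 75 Pmel UMIs (23 to 122), 68 Tyrp1 UMIs (37 to 97) and 9 Tyr UMIs (3 to 16). Variation was measured as the excess CV, the standard deviation left after the counting variance was subtracted, divided by the mean. It was 0.21 for Mlana, 0.24 for Tyrp1, 0.26 for Tyr, 0.29 for Dct and 0.38 for Pmel, and over 10 random thinnings the value for Pmel ran from 0.381 to 0.387. By this measure Mlana was the steadiest and Pmel the most uneven of these 5 genes. Oca2 had 0.47 and Mitf 0.54.

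Nearly every cell had UMIs of these genes, and the shares are set beside those in barcodes low in melanocyte markers. At full depth 96.2% of cells had an Oca2 UMI (exact binomial 95.5 to 96.8), 94.9% a Mitf UMI and 75.5% a UMI of Kit, the receptor for stem cell factor. In the 46 barcodes of this library that passed the UMI and mitochondrial limits but were low in melanocyte markers (median 11028 UMIs), 4.35% had an Oca2 UMI, 10.9% a Mitf UMI, 10.9% a Kit UMI and 76.1% a Mlana UMI. These 46 barcodes were chosen for a low sum of markers that include Mlana, Oca2 and Mitf, and 23 of them are members, so their values for these genes are a description and no separate background.

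Most genes varied little beyond counting noise. Of 2744 genes with a mean of at least 0.25 UMI per thinned cell, 170 had a Fano factor (variance over mean) above 1.5, or 6.20%. The median excess CV was 0.24, and 53 genes exceeded 1. The Fano factor grows with the mean when the excess CV is fixed. It was above 1.5 in 1.89% of genes with a mean of 0.25 to 1 UMI, 8.63% of those from 1 to 5 UMIs and 46.1% of those from 5 UMIs up, and a list of abundant genes is to be read against the last of these.

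**Figure D2:**
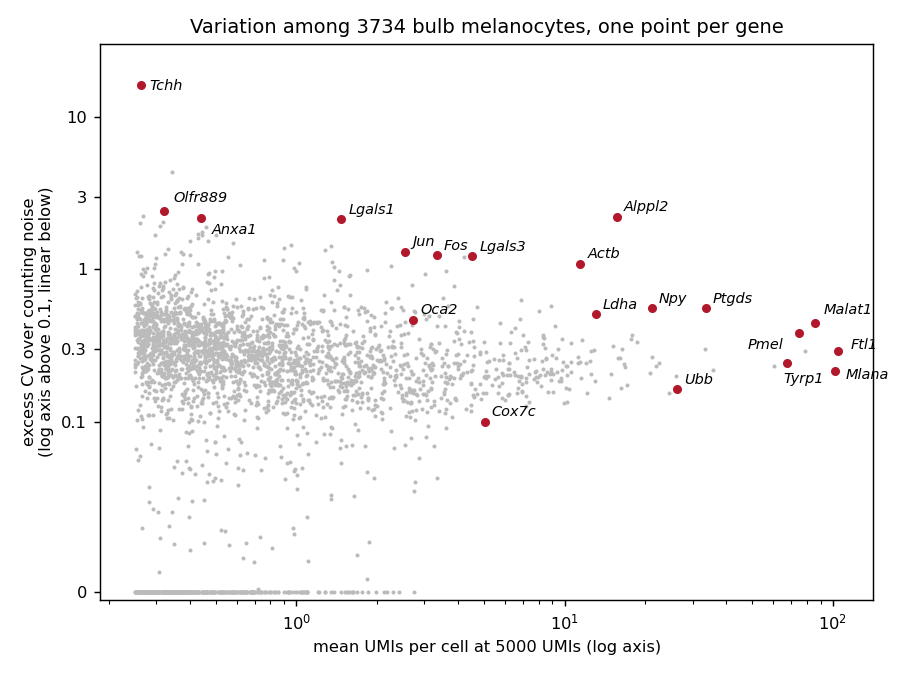
Excess CV against mean UMIs per cell for the 2744 genes with a mean of at least 0.25, 1 point per gene, at 5000 UMIs per cell. Alppl2, Lgals1 and Actb stand above genes of similar mean, Mlana, Tyrp1, Pmel and Oca2 lie between 0.21 and 0.47, and Tchh rests on a few cells low in melanocyte markers.

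The lists ranged from steady to uneven, beside a median excess CV of 0.24 for all ranked genes. Of 28 nuclear genes of oxidative phosphorylation 1 had a Fano factor above 1.5 (Ndufa4, 1.71), and their median excess CV was 0.15, below that of all ranked genes. Of the 18 ranked lysosome and proton pump genes 4 passed, with a median of 0.22, and of the 7 ranked heat shock genes 1 passed, with 0.27. Of the 7 ranked melanin enzyme and matrix genes 6 passed and of the 6 ranked melanosome carriers 5 passed, with medians of 0.29 and 0.27, and most of these were abundant. Of the 8 ranked immediate early genes 7 passed with a median of 1.20, of 17 cytoskeleton genes 9 with 0.54, and of 13 glycolysis genes 9 with 0.39. The cytoskeleton share is near the 46.1% of genes from 5 UMIs up. Of the 8 ranked lineage transcription factors 1 passed, Tfap2b, with an excess CV of 1.30 against 0.40 for Sox10 and 0.36 for Pax3. The median of these factors was 0.49, above that of all ranked genes.

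Most further lists had a single member past the threshold, which genes of low mean seldom pass. Their median excess CV was nonetheless above the 0.24 of all ranked genes. It was 0.39 for the niche receptors, 0.43 for the endoplasmic reticulum list and 0.27 for cargo sorting. For the hypoxia, MHC class I and interferon, and p53 lists, each with few ranked genes, it was 0.95, 0.50 and 0.65. Of 3 receptors for niche signals, Ednrb, the endothelin receptor, passed (1.68) and Kit (1.08) and Mc1r (1.23) did not. Of 14 ranked chaperones and stress factors of the endoplasmic reticulum 1 passed, Hspa5 (1.71). The same was true of 1 of 10 genes of melanosome cargo sorting (Rab38, 2.13), 1 of 3 hypoxia genes (Adm, 1.60), 1 of 3 MHC class I and interferon genes (Ifitm2, 1.62) and 1 of 2 p53 response genes (Cdkn1a, the cell cycle inhibitor p21, 2.03). Of 16 ranked antioxidant genes 8 passed, among them Mt2, a metallothionein with an excess CV of 1.49 that fell to 1.03 without the 23 cells low in melanocyte markers. Among mitochondrial genes 6 of 11 and among ribosomal protein genes 13 of 83 passed, with medians of 0.23 and 0.21. All of these counts are to be read against the 6.20% of all ranked genes past the threshold and the 46.1% of abundant ones, which the mitochondrial share is near.

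The steadiest genes with a mean of at least 3 UMIs were housekeeping genes of low excess CV. They were Spcs1, a signal peptidase subunit, with 0.067, Atp5f1, Ubl5, Tma7, Ndufb8, Cox7c, Ppp1ca, Nedd8, D8Ertd738e and Tomm6, the last with 0.12. Their order is not fixed by the data, since that of Spcs1 ran from 0 to 0.111 over the 10 thinnings. Atp5f1, Ndufb8 and Cox7c encode parts of the respiratory chain and its ATP synthase, Tomm6 belongs to the mitochondrial import pore, and Ubl5 and Nedd8 are ubiquitin-like proteins.

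Alppl2 (chr1:87086694-87089928, minus strand, GRCm38) had the widest spread of any abundant gene, with a Fano factor of 77.7 and an excess CV of 2.22 (2.20 to 2.23 over thinnings). Its median was 0 UMIs, its 95th percentile 96.4 and its highest value 317 of 5000. At this depth 44.6% of cells had a UMI, and at full depth 59.1% did, against 23.9% of the 46 low-marker barcodes. The gene was thus among the most abundant transcripts of some melanocytes and low or not detected in most. Of the neighbouring alkaline phosphatase genes, whose reads could be confused with it, Alpi had 15.5 CPM and Akp3 had 0 UMIs, which allows a UMI in up to 0.0803% of cells and sets no limit on the share that express it.

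To read other genes without reusing the same UMIs, each cell's UMIs were divided at random into 2 portions. Cells were ordered by the level of a gene in the first portion and everything else was read from the second. There were 2338 cells without Alppl2 in the first portion and 485 cells with at least 50 per 5000, and in the second portion these held 42.1 CPM (39.1 to 45.3) and 18781 CPM (18645 to 18918) of it. Both portions came from the same cells, so the second removes counting noise from the contrast and is no separate test of the divide. Cells high in Alppl2 had less of the melanin genes. Pmel was 11552 CPM in them against 16091 in cells without it, Dct 12317 against 16508, Tyrp1 10842 against 14035 and Oca2 363 against 598 CPM, whereas Mlana was 20774 against 20254 CPM. Apod, a lipid-binding apolipoprotein, was 211 against 69.8 CPM. Median UMIs were 15562 in the high cells and 13856 in cells without Alppl2, and the mitochondrial shares were 2.77% and 2.78%.

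Cells were also ordered by Pmel. Without the 23 cells low in melanocyte markers, 57 cells had under 10 Pmel UMIs per 5000 in the first portion, and 1625 had 80 or more. In the second portion the low cells held 1177 CPM of Pmel and the high cells 19786 CPM. The low cells had more Alppl2, 21219 CPM (20744 to 21702) against 1847 (1824 to 1871), more Npy, 7933 against 3463, and more Apod, 370 against 68.4 CPM. They had less Oca2, 171 against 663, less Ptgds, 2705 against 8775, and less Dct, 7843 against 17974 CPM. For Mitf the intervals overlapped, at 362 CPM (302 to 430) against 325 (315 to 335), as they did for Kit, at 123 (89.6 to 166) against 110 (105 to 116). Mlana was 16658 against 21015 CPM, a smaller gap than that of Dct. The 57 cells were 1.54% of the 3711 cells. Their median UMI total was 12443, against 15470 in the high cells.

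Across all cells, some genes rose and fell together and others had opposite signs. Correlations were computed over the 3734 thinned cells and corrected for counting noise. The uncorrected values are smaller in size, and much smaller for pairs with a gene of low mean. They describe cells of a single library at equal depth. Pmel went with Dct (corrected r = 0.60, uncorrected 0.54), Oca2 (0.57), Ptgds (0.54) and Tyrp1 (0.50). It went against Npy (-0.32). Alppl2 went against Tyrp1 (-0.34), Oca2 (-0.33) and Dct (-0.33) and with Apod (0.42). Mlana was less closely tied to these genes, at 0.28 with Pmel, 0.24 with Dct and 0.23 with Tyrp1, and without the 23 cells at 0.22, 0.16 and 0.14. Without them Mlana and Trpm1 were at 0.31, and over all cells Tyr and Pmel were at 0.23. Among the genes it was paired with here, Oca2 went most closely with Slc45a2 (0.61, uncorrected 0.24), another melanosome transport protein. Slc45a2 went with Ctsd, a lysosomal protease, at 0.63 (uncorrected 0.29).

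**Figure D3:**
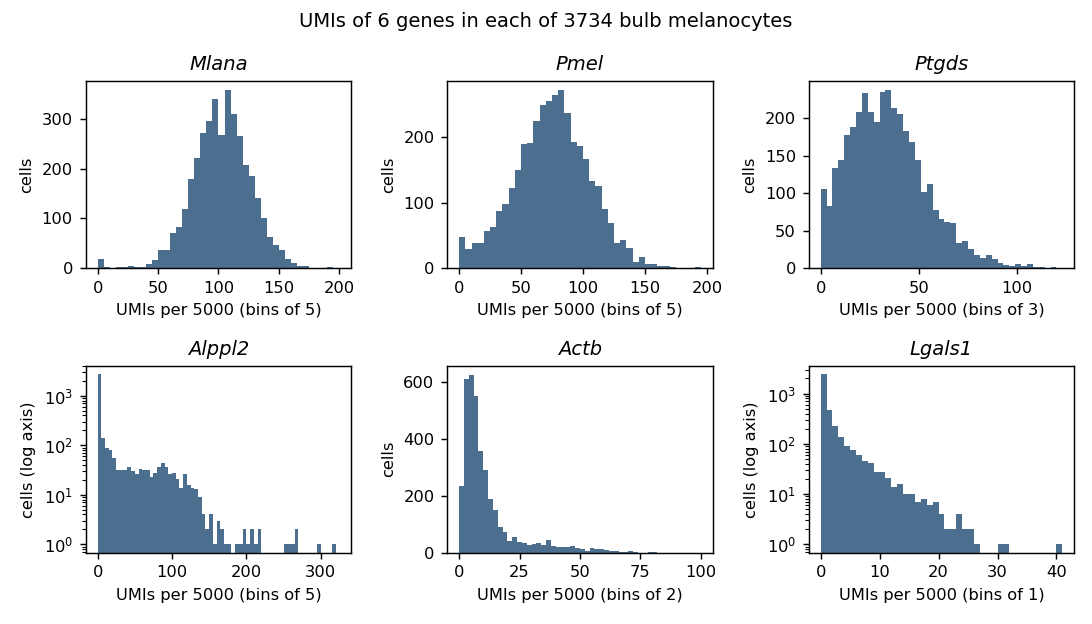
Number of cells at each UMI count per 5000 for 6 genes in 3734 cells, with a log axis for cells in the Alppl2 and Lgals1 panels. Mlana, Pmel and Ptgds have a single broad hump, while Alppl2, Actb and Lgals1 have most cells at low counts and a long tail, up to 317, 97 and 40 UMIs.

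Actb, the gene of cytoplasmic beta-actin, was the other abundant gene with a long tail. A cell held a median of 7 Actb UMIs of 5000 (5th to 95th percentile 1 to 42, highest 97), and the excess CV was 1.09. Actg1, the gene of gamma-actin and close to it in sequence, had a median of 10 UMIs (4 to 19) and an excess CV of 0.33. The genes did not move together (corrected r = -0.05). Actb moved instead with Ttyh2 (0.94), the zinc transporter gene Slc39a1 (0.92), Bhlhe41, a transcription factor of the circadian clock (0.80), and Insig1, a regulator of cholesterol synthesis (0.74). These values were about the same without the 23 cells, at 0.94, 0.92, 0.80 and 0.74. Uncorrected, over all cells, they were 0.525, 0.643, 0.6115 and 0.5297. The genes lie apart, Actb at chr5:142903115-142906754, Ttyh2 at chr11:114675431-114720977, Slc39a1 at chr3:90248172-90253612, Bhlhe41 at chr6:145858243-145865558 and Insig1 at chr5:28071363-28078662.

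Genes chosen after the pattern was seen were read along Actb. By the first portion of UMIs, 211 cells had at least 40 Actb UMIs per 5000 and 2494 had fewer than 10, and the second portion gave 10303 CPM (10132 to 10477) and 1079 CPM (1065 to 1094). Slc39a1 was 527 CPM against 32.1, Abhd2, a lipase gene, 270 against 16.6, Bhlhe41 764 against 79.3, Spry2, an inhibitor of growth factor signalling, 86.0 against 5.21, Insig1 713 against 131, and Ttyh2 311 against 39.9 CPM. Actg1 was 2081 against 2176 and Mlana 20269 against 20290 CPM. Pmel was 13435 against 15638 and Ptgds 6106 against 7315 CPM, both lower. The median UMI total was 12376 in the high cells and 14686 in the low cells, with mitochondrial shares of 2.64% and 2.78%, and the part of cell size in the pattern was not tested.

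**Figure D4:**
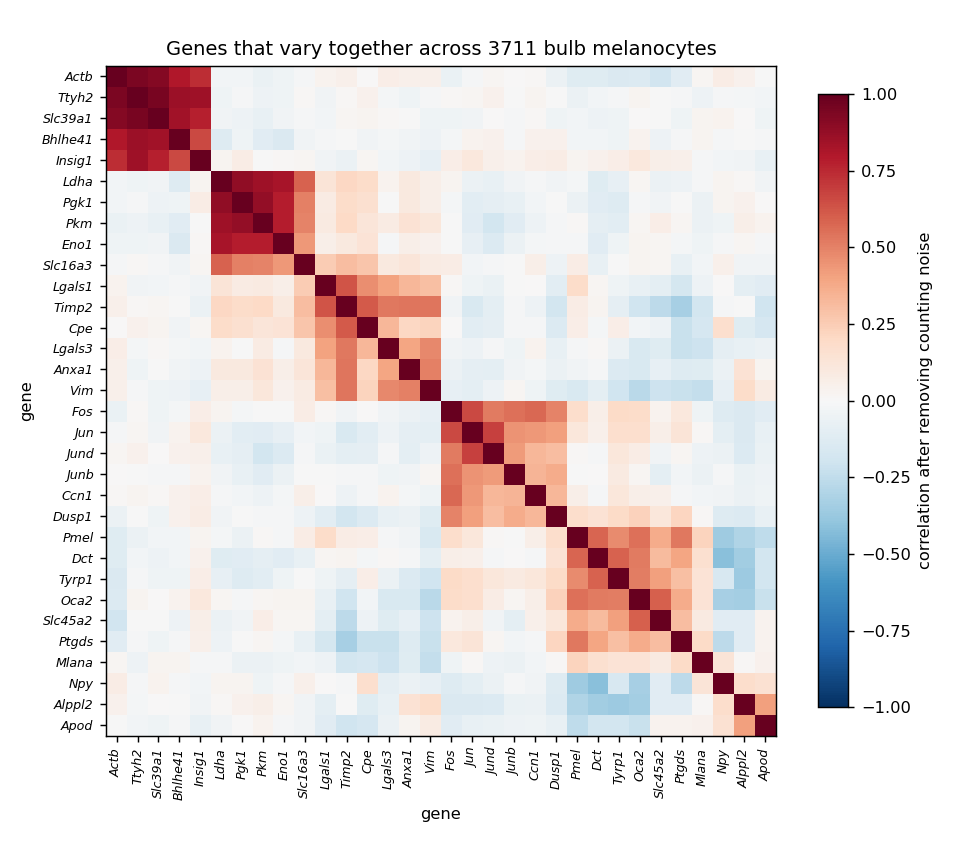
Correlation of genes across the 3711 cells that were not low in melanocyte markers, after removal of counting noise, from -1 (blue) to 1 (red). Blocks along the diagonal are the Actb set, glycolysis, the Lgals1 set, immediate early genes and pigment genes, and Npy and Alppl2 are blue against Pmel, Dct, Tyrp1 and Oca2 but not against Mlana.

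Glycolysis genes rose and fell together. Ldha, lactate dehydrogenase, went with Pgk1 (corrected r = 0.89, uncorrected 0.49), Pkm (0.85), Eno1 (0.82), Tpi1 (0.81), Aldoa (0.80), Pgam1 (0.79) and, less closely, Gapdh (0.62). Slc16a3, the gene of a lactate exporter, went with Ldha at 0.58. Ldha had a median of 12 UMIs (3 to 27) and an excess CV of 0.51, whereas Slc16a3 was rare, with a UMI in 17.5% of cells, and had an excess CV of 2.04. The sum of the 15 glycolysis genes had a median of 59 UMIs (32 to 106) and an excess CV of 0.34. That of the 28 oxidative phosphorylation genes had a median of 131 UMIs (103 to 163) and an excess CV of 0.11. Ldha and Pmel were near 0 (-0.01).

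Immediate early genes, which switch on within minutes of a stimulus, varied as a set. In the paper, skin was kept warm and the bulbs were digested with enzymes before the sort. The part of this handling in these levels was not tested. Their sum had a median of 9 UMIs, a 5th to 95th percentile of 2 to 35 and a highest value of 192 of 5000. Fos had an excess CV of 1.24 and went with Jun (corrected r = 0.66), Ccn1 (0.58), Junb (0.54), Jund (0.52) and Dusp1 (0.50). Dusp1, a phosphatase that ends MAP kinase signals, had an excess CV of 1.35, Ier2 of 1.68, Ccn1, a matricellular protein, of 1.42, and Cebpd, a transcription factor of the stress response, of 1.76. The stress gene Gadd45g had 1.21 and went with Junb at 0.44.

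A further set was led by Lgals1, the gene of galectin-1. It had a UMI in 35.2% of thinned cells, a 95th percentile of 8 and a highest value of 40 UMIs, and an excess CV of 2.14. It went with Timp2, an inhibitor of matrix proteases (corrected r = 0.61), Cpe, carboxypeptidase E (0.46), and Lgals3, the gene of galectin-3 (0.41). Anxa1, the annexin, went with Timp2 and with Vim, the intermediate filament vimentin, at 0.50 each. In the second portion of UMIs, the 130 cells with at least 10 Lgals1 UMIs per 5000 in the first held 2395 CPM of Lgals3 against 718 in the 2691 cells without Lgals1, 319 against 67.5 CPM of Anxa1, 252 against 37.8 of Timp2 and 177 against 36.4 of Vim. They held less Gal3st4, a sulfotransferase gene, 18.4 against 125, less Serpinf1, the gene of the secreted factor PEDF, 105 against 321, and less Ptgds, 4742 against 7318 CPM. Pmel was higher, 18125 against 14724 CPM, so these were not the cells low in Pmel.

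Other genes among the 25 of highest excess CV belonged to the sets above, had no close partner or rested on few cells. Olfr889, an olfactory receptor gene, had 2.41 with a UMI in 16.2% of cells, and its highest corrected r among 154 genes compared was 0.077, with Slc3a2. Cyba, a subunit of NADPH oxidase, had 1.70, Rnase1 1.68, Apod 1.54, Cpe 1.44, Bhlhe41 1.38 and Ifitm2 1.37. Tchh (16.2), Ass1 (4.36), Ggh (2.23), Bambi (1.93), Tubb6 (1.69) and Prdx2 (1.60) owed their place at least in part to the 23 cells low in melanocyte markers. Without them Ass1 had 1.78, Ggh 1.08, Bambi 1.18, Tubb6 1.04 and Prdx2 1.01, and neither Tchh nor Ggh reached the mean of 0.25 UMI. Among these genes Tchh and Ass1 went together at a corrected r of 0.87 with the 23 cells and 0.22 without. Of the 25 genes, 19 were also among the 25 highest without those cells.

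Cells were grouped by all of their variable genes to see how the sets combined. With the first portion of UMIs used for grouping there were 9 clusters, of 22 to 780 cells, and levels were read from the second portion. A cluster against the other cells is a description. The first components held 1.86% and 1.38% of the variance, and settings that changed the grouping kept only part of it (adjusted Rand index 0.53 at a lower resolution, 0.48 with 20 components, 0.45 from the other portion of UMIs), so the clusters are described as groups of cells with shared levels and not as types. Leading genes are those with the largest fold over all other cells together, and another cluster may hold more of the same gene.

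The largest, cluster 1 (780 cells), had the most melanin gene transcripts, with 75240 CPM of the 7 markers, and led in Dusp1, Jun, Gadd45g, Gal3st4 and the interferon-induced gene Tmem140. It held 9416 CPM of Ptgds and 1381 CPM of Alppl2. Cluster 3 (668 cells) had less of the markers, 58635 CPM, and of Pmel, 10046 CPM, but more Alppl2, 6457 CPM, and Npy, 6155 CPM, and led in Alppl2, Apod, the phospholipase gene Plaat3 and Npy. Cluster 4 (596 cells) led in Slc16a3, Cpe, the proton pump subunit gene Atp6v0d2, Fos and Rnase1, with 862 CPM of Alppl2 and 14287 CPM of glycolysis genes. Cluster 2 (694 cells) led in Anxa1, Ganc, Lgals3 and Mt2, and 4 of its cells were low in melanocyte markers. Clusters 1 and 2 had median UMI totals of 15850 and 17338, clusters 3 and 4 of 12442 and 12576, so depth moved with the grouping and its part was not tested.

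Cluster 5 (561 cells, 15.02% of members, exact binomial 13.9 to 16.2) was the Actb set. It held 6573 CPM of Actb, against 1100 to 2269 CPM in the other clusters, and led in Slc39a1 (344 CPM against 43.8 in all other cells), Abhd2 (148 against 21.4), Bhlhe41 (588 against 102), Ttyh2 (270 against 50.2) and Marf1 (197 against 37.2). Its markers summed to 68345 CPM. Cluster 6 (264 cells, 7.07%) was the Lgals1 set, with 1412 CPM of Lgals1 against 207, and led also in Ahnak2, Timp2, Slc16a3 and Cpe. Its glycolysis sum was 15066 CPM, the highest of the clusters, and its mitochondrial share 3.03%. When the other portion of UMIs was used, 82.2% of cluster 5, 81.7% of cluster 1, 73.8% of cluster 3 and 65.4% of cluster 4 fell again into a single cluster, against 41.9% of cluster 2. For cluster 6 it was 91.7%, but its match held 479 cells, and that of cluster 1 held 940, so both were joined by other cells. With 20 components 80.2% of cluster 5 and 44.6% of cluster 1 stayed together. The match of cluster 5 then held 468 cells, so the interval of its share covers counting only and not the setting.

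High levels of cell cycle transcripts were found in 2 small clusters. Cluster 7 (107 cells, 2.87%, 2.35 to 3.45) held 2975 CPM of the 18 S phase genes and 2701 CPM of the 20 G2/M genes, and led in Top2a, Nusap1, Prc1, Pbk and Tk1. Cluster 8 (42 cells, 1.12%, 0.812 to 1.52) held 537 and 1528 CPM, and led in Ccnb2, Cenpa, Racgap1, Cdca3 and Cenpm. At the lower resolution a single cluster of 148 cells held all 42 of them and 106 cells of cluster 7. From the other portion of UMIs, 96 cells of cluster 7 and 40 of cluster 8 had a best match of 149 cells. With 20 components 102 cells of cluster 7 fell in a match of 109 cells, and all 42 of cluster 8 in another of 70. The split between clusters 7 and 8 therefore depended on the setting, and the intervals of their shares cover counting only. In clusters 1 to 6 the S phase sum lay between 230 and 299 CPM and the G2/M sum between 62.6 and 82.6 CPM. Melanin genes were present but lower than over all cells, with markers at 55157 CPM in cluster 7 and 58064 CPM in cluster 8 against 67722 CPM. Mlana was 18136 and 18290 CPM against 20325, Tyrp1 10146 and 10465 against 13524, and Oca2 331 and 231 against 554 CPM. Cluster 7 had the highest median UMI total, 20374, and 1 of its cells was low in melanocyte markers. Cluster 8 had 3687 CPM of Malat1 against 16285 in the other cells, 231 against 962 CPM of the tubulin gene Tuba1a and 13.8 against 126 CPM of Tubb3. Mki67, a marker of dividing cells, had a UMI in 64 cells, or 1.71% (1.32 to 2.18), against 10.9% of the 46 low-marker barcodes.

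Cluster 9 (22 cells) held 17 of the 23 cells low in melanocyte markers. It led in Sptssb, Tchhl1, Ivl, Tchh and Padi3, genes of the inner root sheath and of cornifying keratinocytes, with 12717 CPM of the hair list and 209267 CPM of ribosomal protein genes against 98669 to 127491 CPM in the other clusters. By its leading genes it was not a melanocyte cluster.

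**Figure D5:**
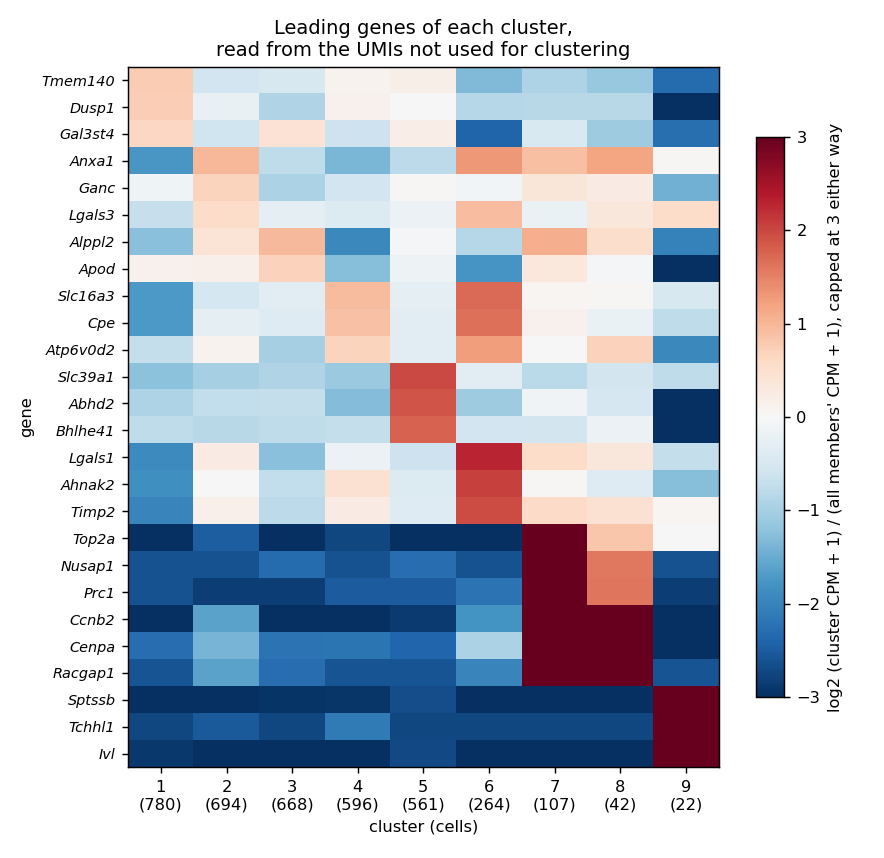
Level of leading genes of each of 9 clusters, at most 3 per cluster, as the log2 of cluster CPM over the CPM of all 3734 cells with 1 added to each, read from UMIs that did not enter the clustering. Clusters 5 to 9 each have a compact set of genes, and clusters 1 to 4 differ by smaller shifts.

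Levels also moved with the UMI total of a cell. Cells were put into 5 groups of 746 or 747 by total, with medians from 9604 to 21269 UMIs, and all were read at 5000 UMIs. From the smallest to the largest group Malat1 went from 109 to 66.4 UMIs, Actb from 15.4 to 9.66, Fos from 4.14 to 2.65 and Npy from 23.4 to 17.2 UMIs. Pmel went from 64.9 to 81.1, Ptgds from 26.1 to 41.6, Ftl1 from 94.5 to 115 and Alppl2 from 13.0 to 20.4 UMIs. Mlana stayed between 100 and 103 UMIs. The G2/M sum was 0.459 to 0.613 in the 4 smaller groups and 1.77 in the largest.

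A UMI of the Y-linked genes Ddx3y, Eif2s3y, Kdm5d or Uty was found in 78.0% of the cells, with no background share for these genes, while Xist, the transcript of the inactive X chromosome, had 12 UMIs in 12 cells.

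The same measures were taken in 2785 early-anagen cells that met the rule with a minimum of 10000 UMIs, of the other kit version and stage, and are set side by side without a comparison. There 294 of 2816 ranked genes had a Fano factor above 1.5 and the median excess CV was 0.38. Pmel had a mean of 22.4 UMIs and an excess CV of 0.71, where the bulb cells had 74.5 and 0.38. Mlana and Pmel went together at a corrected r of 0.61 there and 0.28 in the bulb. Actb had a mean of 27.2 UMIs and an excess CV of 0.37, and its corrected r was 0.66 with Slc39a1, 0.56 with Ttyh2 and 0.01 with Bhlhe41, where the bulb cells had 0.92, 0.94 and 0.80. Alppl2 had a UMI in 14.3% of the thinned early-anagen cells and in 44.6% of those from the bulb.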

How the data were processed

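UMI counts per gene and barcode were made by the authors with Cell Ranger 6.0.1 against mm10, per the labels, and deposited as filtered matrices. Free RNA was not removed. The bulb matrix had 32285 genes. A cell's UMIs were thinned without replacement to 5000 (10 thinnings, the first reported). Excess CV is the square root of (variance minus mean times (1 minus mean/5000)) over mean squared. Corrected correlations divide the covariance, with its sampling term added back, by the same excess variances. Clusters used 3000 variable genes, 10 components, 20 neighbours and Leiden at resolution 0.6, on 1 of 2 binomial portions of the UMIs. Thinning, excess CV and corrected correlations were tested on simulated data. The clustering and the division of UMIs into portions were not. Intervals are 95% (exact Poisson or Clopper-Pearson) and cover counting error only. Scrublet called 1 of 3774 barcodes, so doublets were not removed, and cells of the highest UMI totals were left out as an alternative.

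Named genes were the 20 most abundant, the 25 of highest and 10 of lowest excess CV, the members of 27 lists (386 genes) and leading cluster genes at 100 CPM or more. The members and lists were chosen with earlier results of these data known, and the genes read along Alppl2, Actb, Lgals1 and Pmel, and the gene pairs, after their values were seen. Python 3.11.15, scipy 1.17.1, leidenalg 0.10.2 and GENCODE M21 coordinates were used. Some genes that met the rule, and the list that rests on one of them, are not reported here.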

Additional observations from a re-analysis of the deposited data

How the results depend on the processing

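Each setting was changed alone, except that the setting with no UMI minimum also thinned to 2500 UMIs, and that fewer cells had enough UMIs at 10000 (3288) or with mitochondrial and ribosomal protein genes taken out (3697). The number of cells was 1077 when the mitochondrial limit was 2.5%. The 7 markers took 6.803% of UMIs with a minimum of 10000 UMIs, 6.79% with a mitochondrial limit of 10%, 6.35% with 2.5%, 6.79% with no keratin UMI allowed, 6.76% with no keratin limit, 6.79% with 5 of 7 markers required in place of Dct, 7.89% with mitochondrial and ribosomal protein genes taken out, 6.804% without the 23 low-marker cells and 6.84% without the cell cycle clusters. The last pair of settings was chosen after the data were seen. The number of genes past the Fano threshold moved with depth and with the threshold. With depth the number of ranked genes changed too. At 2500 UMIs 70 of 1539 passed, at that depth with no UMI minimum 74 of 1551, and at 10000 UMIs 357 of 4240. A change of threshold left the 2744 ranked genes as they were, and 328 passed at the lower threshold and 85 at 2. Ranked by Fano factor, 5 of the 25 most variable named genes remained, since that ranking favours abundant genes.

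Of 1188 values followed for 37 genes and 17 pairs, 1168 stayed within 1.5 times the reported value. The settings included 9 other random thinnings of the same cells and several that dropped few cells, so many values had little room to move. Tspan3 and Bambi went from a corrected r of 0.67 to -0.056 without the low-marker cells, and Mt2 from an excess CV of 1.49 to 2.67 with the mitochondrial limit at 2.5%. Tchh went from 16.2 to 10.8 at that limit and to 31.2 with 5 of 7 markers required. No paired analysis was possible because each group is a single library. The alternative with Scrublet was not run. With 1 library of pooled mice, differences between animals and between cells cannot be told apart.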

Other observations

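Barcodes of this library outside the rule were used above among the 46 low in melanocyte markers. They also entered counts of barcodes and UMIs, the Scrublet call and settings that changed the rule. The 440 barcodes with 5000 UMIs or fewer had a median of 1112 UMIs and 21.2% mitochondrial UMIs, with 47679 CPM of the 7 melanocyte markers and 66912 CPM of Malat1. The 113 deeper barcodes at or above 5% mitochondrial UMIs had a median of 7530 UMIs, 81754 CPM of the markers, 1855 CPM of Alppl2 and 29431 CPM of Malat1. The 40 barcodes set aside for Dct or keratin had 38354 CPM of the markers, 3515 CPM of Tchh and 2487 CPM of Krt17, and 27 of them had a Dct UMI.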
